A study of Mus musculus with 4 samples.

Results

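The genes described here are 37 DNA repair and damage checkpoint genes, listed by name and known function, with earlier results of these arrays already known. For 36 of them at least 1 probe set was annotated to that gene alone, out of 18193 genes with such a probe set, while Xrcc2 had none among the values analysed here. Each gene is represented by its probe set with the highest mean over the 4 arrays. Probe sets whose mean reached a log2 value of 4.17, the 40th percentile, entered the test, which kept 34 of the genes among 13489 genes tested. Bard1 and Rad54b lay below that level.

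The RNA came from skin cells sorted from mouse pups at postnatal day 4, 24 h after an injection of doxycycline. The induced group, labelled miR-203 inducible, carried K14-rtTA, TRE-miR-203 and K14-H2BGFP, so that the keratin 14 promoter drives the doxycycline-dependent activator that switches on the microRNA transgene. The control group was labelled WT but came from littermates with TRE-miR-203 and K14-H2BGFP and no K14-rtTA. Both groups therefore carried the silent or active transgene and the nuclear green fluorescent reporter, on an FVB background, and effects of the activator and of miR-203 cannot be told apart. Each group held 2 arrays, labelled as biological replicates, so precision is limited throughout. No source used here states the sorting gate. The mature miR-203 was not measured by the probe sets analysed. It is shown as the agent that separates the groups, with its seed (bases 2 to 8) in capitals, from RefSeq on GRCm38.p6:
mmu-miR-203-3p: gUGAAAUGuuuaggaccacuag

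DNA repair genes answer different kinds of damage. Homologous recombination copies a broken stretch from the sister chromatid and works mainly in S and G2 phase. The Fanconi anemia pathway clears crosslinks that stall replication forks, mismatch repair corrects copying errors behind the fork, and end joining seals broken ends at any phase. The checkpoint kinases Atm and Atr sense damage and pass the signal to Chek2 and Chek1. Many recombination and checkpoint genes are transcribed by E2F factors at the G1/S transition, so that their messenger RNA is abundant in dividing cells. In the epidermis these are the cells of the basal layer, where miR-203 is normally scarce.

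Keratin markers fitted the label of skin epithelium. Krt5 and Krt14 of the basal layer had log2 values of 13.6 to 14.1 and Krt1 and Krt10 of the suprabasal layers 14.0 to 14.3. Of the markers of other cells, 3 of 4 for endothelium and 3 of 6 for dermal fibroblasts lay below the filter level, whereas all 6 for melanocytes and all 6 for Langerhans and other immune cells were above it. Summed on the linear scale, the melanocyte markers ran from 4051 to 4238 in controls and from 3700 to 5615 in induced arrays, and the immune markers from 2017 to 2473 and from 1912 to 2632. The summed ranges of both lists overlapped between the groups, and that of the fibroblast markers did too (386 to 402 and 274 to 484). Basal keratinocyte sums did not overlap (41419 to 41708 in controls and 35838 to 37099 in induced arrays), and neither did those of suprabasal keratinocytes (67921 to 68422 in controls and 64209 to 67314 in induced arrays), endothelium (73.1 to 82.3 and 60.4 to 71.3) and red blood cells (67.2 to 71.6 and 91.4 to 100.4). Of the 3 red blood cell markers with a probe set, Hba-a1 lay below the filter level and overlapped between the groups. Alas2 was near that level, with a mean of 4.26, and Slc4a1 differed by 0.71 ± 0.11. Among single genes, 19.3% of all tested had both induced arrays below both controls, and 20.1% had both above. The part of any of these lists in the results was not tested. Eif2s3y, a gene on the Y chromosome, was at 9.38 on induced replicate 1 and at 2.82, 2.52 and 2.72 elsewhere, and Xist, which is transcribed from the inactive X chromosome, was at 5.86 there and at 10.57, 10.80 and 11.19 elsewhere. Results are therefore also given without that array where it moved them.

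Most repair and checkpoint genes had lower values under induction, although no single gene passed the threshold. Of the 34 genes tested, 33 had a lower induced mean (50.2% of all genes tested did), 0 had a higher one, and Polq had equal means. In 23 of them both induced arrays lay below both controls (19.3% of all genes), and in 0 did both lie above (20.1%). Only Exo1, Chek1 and Rad51ap1 among the 23 were also at least 1.5-fold lower (3 of 34, against 0.749% of all genes). Without induced replicate 1 the differences of these 3 were -0.49, -0.40 and -0.47, each under 1.5-fold. The median difference, induced minus control on the log2 scale, was -0.23, or 1.17-fold lower, against -0.00 over all 13489 genes. Of the 34, 18 lay among the lowest 10% of all genes by this difference and 25 among the lowest 25%, while 0 lay among the highest 25%.

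In limma 0 of the 34 genes had a Benjamini-Hochberg adjusted p under 0.05, as had 0% of all genes, and the smallest adjusted value among them was 0.231. Before adjustment, 11 of the 34 were lower and 0 higher with a p under 0.05, against 5.23% and 4.4% of all genes. The 11 were Brca1, Brip1, Rad51ap1, Rad51c, Nbn, Exo1, Usp1, Msh3, Msh6, Chek1 and Chek2. With a variance prior that follows the level and resists outliers, limma called 0 of the 34 (lowest adjusted p = 0.146), against 0.6% of all genes in either direction and 0.2% that were lower. An exact permutation test of 2 against 2 arrays cannot give a two-sided p below 0.333. Fewer dividing cells in the sorted population and less of each transcript per cell cannot be told apart in these bulk samples.

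**Figure D1:**
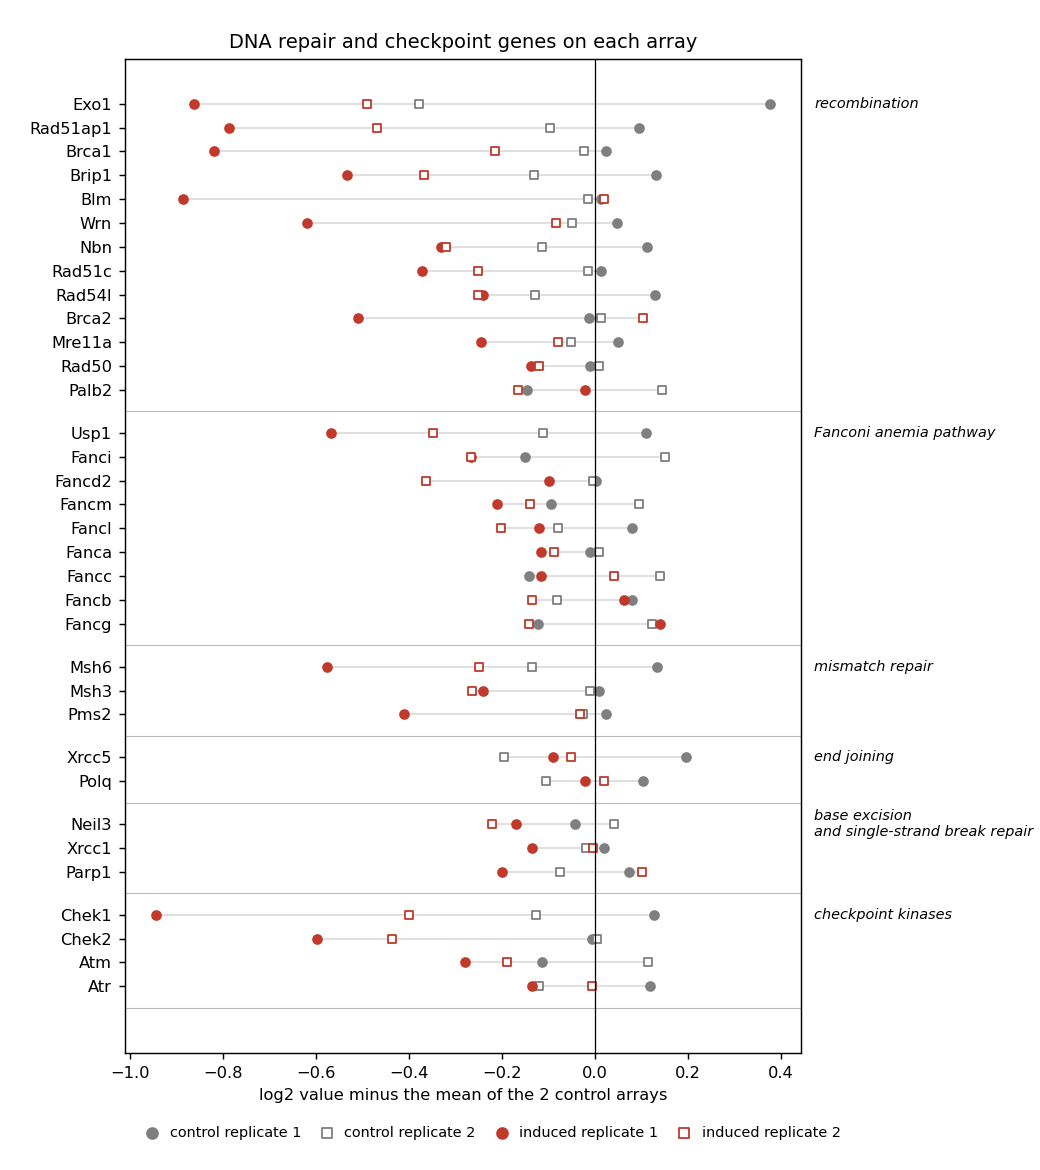
Log2 value of each of the 34 genes on each of the 4 arrays, minus the mean of the 2 control arrays (x axis), by pathway. Grey marks are controls and red marks induced arrays, filled circles replicate 1 and open squares replicate 2; Chek1 spans -0.94 on induced replicate 1 to -0.40 on induced replicate 2, and Fancg has induced arrays on both sides of 0.

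**Figure D2:**
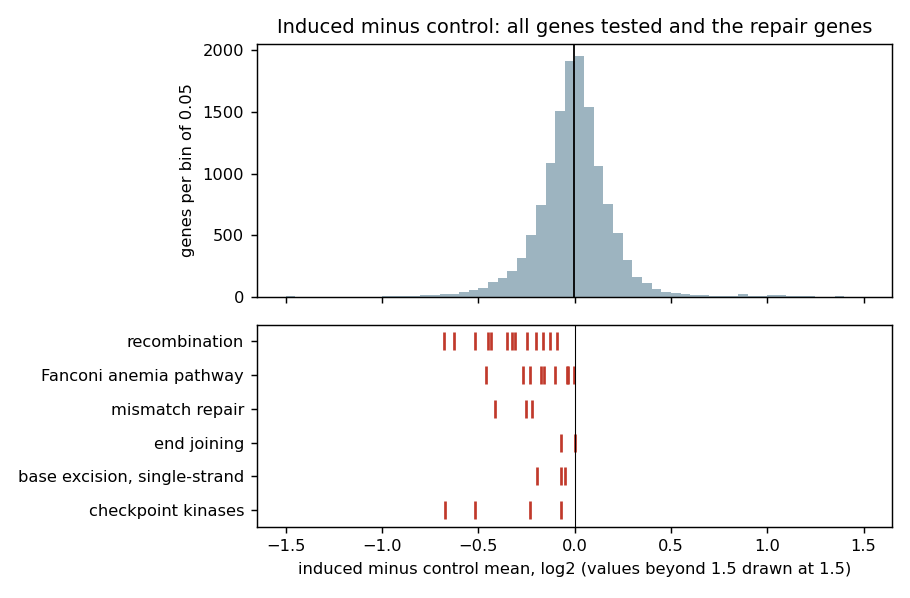
Upper panel, number of genes by induced minus control mean on the log2 scale in bins of 0.05, over all 13489 genes tested, with the median as a line. Lower panel, the same difference for each of the 34 genes by pathway; recombination and checkpoint genes reach -0.68 and -0.67, and no mark lies right of 0.

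By median difference, the pathways furthest apart were the checkpoint kinases and the end joining genes, with medians of -0.38 over 4 genes and -0.04 over 2. Between them lay recombination (-0.32 over 13), mismatch repair (-0.25 over 3), the Fanconi anemia pathway (-0.16 over 9), and base excision with single-strand break repair (-0.07 over 3). Differences between these pathways were not tested.

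Both effector kinases of the checkpoint were lower in both induced arrays. Chek2, which acts below Atm, had log2 values of 6.83 and 6.84 in controls and 6.24 and 6.40 in induced arrays. The groups did not overlap, the difference of -0.52 ± 0.10 (SE, n = 2 and 2) was 1.43-fold, and its adjusted p of 0.231 in limma was the lowest of the 34 genes. Chek1, which acts below Atr and guards ongoing replication, had values of 7.38 and 7.13 in controls and 6.31 and 6.85 in induced arrays. It differed by -0.67 ± 0.20 (1.59-fold lower, adjusted p = 0.369). Its other 2 probe sets above the filter differed by -0.55 ± 0.35, with overlap, and by -0.60 ± 0.22, without.

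The damage sensors above them lay closer to 0. Atm had values of 7.19 and 7.42 against 7.03 and 7.12, without overlap, and a difference of -0.23 ± 0.12. Its other kept probe set differed by -0.29 ± 0.10. Atr had 6.78 and 6.55 in controls and 6.53 and 6.66 in induced arrays, which overlapped (-0.07 ± 0.12). A further Atr probe set, whose mean of 4.34 was near the filter level, was higher in both induced arrays (0.46 ± 0.17, adjusted p = 0.439), so that the direction of Atr is uncertain.

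Promoters were searched on both strands for the E2F words TTTCCCGC, TTTGGCGC, TTTCGCGC and TTTGCCGC, a feature of some genes of this kind. The window ran from 250 bases before to 50 bases after each RefSeq start (GRCm38.p6). The words can overlap, as TTTGGCGC and TTTCGCGC do in the Msh3 window. Promoter sequences were matched for 29 of the 37 genes, and 7 of them held a word (24.1%), against 2.6% of all genes with a promoter sequence and 4.37% of the tested genes. The 7 were Chek2, Msh3, Msh6, Rad51c, Brca2, Fancg and Bard1. The printed promoters were chosen because the word lies wholly upstream of the start and the gene was tested, running from the lowest difference among them (Chek2) to none (Fancg). Capitals mark the E2F words:
Chek2: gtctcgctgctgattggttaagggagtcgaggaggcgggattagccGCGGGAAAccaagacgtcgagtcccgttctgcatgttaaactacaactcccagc
Msh3: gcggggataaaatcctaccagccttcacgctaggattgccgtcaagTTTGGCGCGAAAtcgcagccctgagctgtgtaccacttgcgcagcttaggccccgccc
Brca2: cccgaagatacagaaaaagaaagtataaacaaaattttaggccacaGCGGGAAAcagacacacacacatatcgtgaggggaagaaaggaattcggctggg
Fancg: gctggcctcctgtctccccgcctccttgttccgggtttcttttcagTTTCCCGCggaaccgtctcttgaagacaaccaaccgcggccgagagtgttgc

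These windows lie, in that order, at chr5:110839785-110839884 on the plus strand, chr13:92355148-92355251 on the minus strand, chr5:150522407-150522506 on the plus strand and chr4:43010302-43010399 on the minus strand. Each sequence is written 5′ to 3′ on the strand of its gene, so the Chek2 and Brca2 words appear as their reverse complement. The first base of the word lies 152 bases upstream of the start in Chek2, 202 in Msh3, 168 in Brca2 and 52 in Fancg. Rad51c has a word 5 bases before 1 of its starts and another after its other start, and that of Msh6 begins 16 bases after the start. The 6 tested genes with a word had a median difference of -0.28, from -0.52 for Chek2 to -0.00 for Fancg. The 22 without one had a median of -0.17, from -0.67 for Chek1 to 0.00 for Polq. The cell cycle homology region TTTGAA, a short element of genes transcribed in G2 and M phase, was in 6.9% of the 29 genes (Bard1 and Polq), against 14.5% of the tested genes. A match in these letters is a description of the window and not evidence of binding.

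All 13 recombination genes tested had a lower induced mean (50.2% of all genes did). In 10 of them both induced arrays lay below both controls (19.3% of all genes). Of the genes around the strand-exchange step, Rad51ap1, which stimulates the recombinase, had values of 7.31 and 7.12 in controls and 6.42 and 6.74 in induced arrays. It differed by -0.63 ± 0.14 (1.54-fold lower, adjusted p = 0.268), and its other 3 kept probe sets by -0.97 ± 0.14, -0.53 ± 0.16 and -0.35 ± 0.11. Those 4 probe sets were all lower in both induced arrays, the lowest adjusted p among them being 0.176. Rad51c, a paralog of the recombinase, had 6.28 and 6.25 against 5.89 and 6.01, a difference of -0.31 ± 0.10 in which neither group spread by more than 0.12. Its other kept probe set varied more, with 4.75 and 4.65 against 3.74 and 4.48 (-0.59 ± 0.24). The motor protein gene Rad54l differed by -0.25 ± 0.12, also without overlap. Its relative Rad54b, with values of 3.61 and 3.69 against 2.94 and 3.11, had both induced arrays lower but was too dim to be tested.

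Genes of the Brca1 and Brca2 complexes did not share 1 pattern. Brca1, which directs broken ends toward recombination, had values of 6.69 and 6.65 in controls and 5.85 and 6.46 in induced arrays. Its difference of -0.52 ± 0.20 (1.43-fold lower, adjusted p = 0.477) was mostly carried by induced replicate 1, at -0.82 below the control mean against -0.21 for replicate 2. A second Brca1 probe set differed by -0.42 ± 0.13, with both induced arrays lower. Brip1, the helicase partner of Brca1, had 4.84 and 4.58 against 4.18 and 4.35 (-0.45 ± 0.13), and its induced mean of 4.26 was close to the filter level. Brca2, which loads the recombinase, had 5.91 and 5.94 against 5.42 and 6.03, so that the induced arrays lay on either side of the controls (-0.20 ± 0.20). Palb2, which joins Brca1 to Brca2, overlapped between groups (5.19 and 5.48 against 5.31 and 5.17, -0.09 ± 0.13). Bard1, the obligate partner of Brca1, had values between 2.98 and 3.28 on all 4 arrays and was not tested.

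Among the genes that process broken ends, Exo1, an exonuclease of resection and mismatch repair, had the lowest difference of the 34 genes. Its values were 5.56 and 4.80 in controls and 4.32 and 4.69 in induced arrays. The groups did not overlap, but the controls had an SD of 0.53. The difference of -0.68 ± 0.26 (1.6-fold lower) had an adjusted p of 0.478 in limma. Without control replicate 1 the difference was -0.30, and without control replicate 2 it was -1.05. Its other kept probe set gave -0.62 ± 0.25. The Mre11-Rad50-Nbn complex, which binds broken ends first, was lower by smaller amounts. Nbn had 8.45 and 8.23 against 8.01 and 8.02 (-0.32 ± 0.11, 1.25-fold lower), Rad50 differed by -0.13 ± 0.09 and Mre11a by -0.16 ± 0.11, each without overlap. The other kept Mre11a probe set overlapped between groups (-0.03 ± 0.12).

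The RecQ helicase genes Blm and Wrn, which resolve recombination intermediates, turned on a single array. Blm had values of 6.56 and 6.53 in controls, 5.66 in induced replicate 1 and 6.56 in induced replicate 2. The second induced array was thus at the control level, and the difference was -0.43 ± 0.28. Wrn had 6.26 and 6.17 against 5.60 and 6.13 (-0.35 ± 0.18). Its other 2 kept probe sets differed by -0.10 ± 0.12 and 0.12 ± 0.10, so that its direction is uncertain.

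In the Fanconi anemia pathway the core complex had small differences. Its tested members Fanca, Fancb, Fancc, Fancg, Fancl and Fancm form the ubiquitin ligase of the pathway, with Fancl as the catalytic subunit. They differed by -0.17 to -0.00, Fancm being lowest at -0.17 ± 0.11. In Fanca, Fancl and Fancm both induced arrays lay below both controls, and in Fancb, Fancc and Fancg they did not. Fancg had 6.06 and 6.30 against 6.32 and 6.04 (-0.00 ± 0.14), while its other kept probe set was higher in both induced arrays (0.33 ± 0.10, adjusted p = 0.4). Other kept probe sets of Fanca, Fancb, Fancc and Fancm also included 1 with a higher induced mean, from 0.04 to 0.08. Fancb lies on the X chromosome and had 7.43 on induced replicate 1, where Eif2s3y was high, and 7.23 on the other, against 7.44 and 7.28 in controls.

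The substrates of that ligase and the enzyme that reverses it also had both induced arrays below both controls, as had Fanca, Fancl and Fancm. Their difference from the core was not tested. Fancd2 and Fanci, the pair that is ubiquitinated, differed by -0.23 ± 0.12 and -0.27 ± 0.13, each without overlap. Usp1, which removes the ubiquitin again, had values of 9.89 and 9.66 in controls and 9.21 and 9.43 in induced arrays, a difference of -0.46 ± 0.13 (1.37-fold lower, adjusted p = 0.356). Its other 2 kept probe sets gave -0.35 ± 0.11 and -0.39 ± 0.12. Averaging all kept probe sets of each gene gave a median of -0.049 for the 9 Fanconi genes, in place of -0.16.

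All 3 mismatch repair genes were lower in both induced arrays (19.3% of all genes were). Msh6, part of the heterodimer that reads single mismatches, had 8.42 and 8.15 against 7.71 and 8.03 (-0.41 ± 0.16, 1.33-fold lower, adjusted p = 0.461). Msh3, part of the heterodimer that reads larger loops, had 7.30 and 7.28 against 7.04 and 7.02, the tightest pair of groups among them, with a difference of -0.25 ± 0.09. Pms2, of the nicking complex, had 6.66 and 6.61 against 6.22 and 6.60, so that 1 induced array was at the control level (-0.22 ± 0.15). Its other kept probe set, with a mean of 4.83, overlapped between groups (0.07 ± 0.22).

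Except for Neil3, the end joining and base excision genes were near their control levels. Xrcc5, the larger Ku subunit that caps broken ends, had 7.70 and 7.31 against 7.41 and 7.45 (-0.07 ± 0.15). Polq, the polymerase of the alternative, microhomology-guided route, had 4.38 and 4.17 against 4.25 and 4.29 (0.00 ± 0.11), at a level near the filter. Parp1, which senses strand breaks, had 7.89 and 7.74 against 7.62 and 7.92 (-0.05 ± 0.14), and its other 2 kept probe sets both gave -0.11. The scaffold gene Xrcc1 differed by -0.07 ± 0.10. Neil3, a glycosylase of replicating cells, had 5.19 and 5.27 against 5.06 and 5.01, the only member of these 2 pathways without overlap (-0.19 ± 0.10, adjusted p = 0.586).

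Over the 34 genes, 17 had further probe sets above the filter, 24 in all. Of these 24, 15 had a lower induced mean, 8 a higher one and 1 an equal one, with a median of -0.11. The 8 belonged to Wrn, Fanca, Fancb, Fancc, Fancg, Fancm, Pms2 and Atr. None of the further kept probe sets of Chek1, Rad51ap1, Brca1, Usp1, Exo1, Rad51c or Atm was higher.

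**Figure D3:**
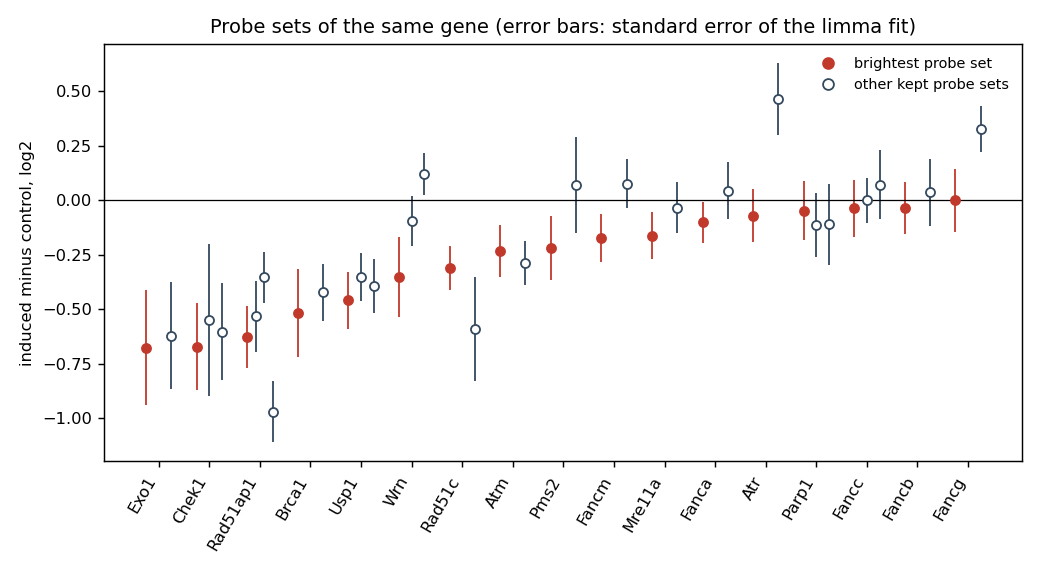
Induced minus control difference on the log2 scale (y axis) for the 17 genes with more than 1 kept probe set; bars are the standard error of the limma fit. The red probe set has the highest mean; Rad51ap1 lies below 0 in all 4 probe sets, down to -0.97, whereas Atr and Fancg have 1 at 0.46 and 0.33.

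The induced arrays did not contribute equally. Measured against the control mean, the 34 genes had a median of -0.24 on induced replicate 1 and -0.18 on replicate 2. Recombination genes had -0.51 and -0.21, checkpoint kinases -0.44 and -0.29, and Fanconi genes -0.12 and -0.14. Induced replicate 1 lay below replicate 2 for 25 of the 34 genes (73.5%, against 53.3% of all genes). Without induced replicate 1 the median of the 34 was -0.18 and those of recombination and of base excision with single-strand break repair -0.21 and -0.0035, with 3 of the 34 lower at an unadjusted p under 0.05 (3.54% of all genes). Without control replicate 1 it was 4 of the 34 (3.07% of all genes). Without induced replicate 2 the medians were -0.51 for recombination, -0.41 for mismatch repair and -0.17 for base excision with single-strand break repair. The end joining median changed sign, at 0.11 without control replicate 1.

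Replication and proliferation markers also had lower means and are given beside the repair genes. All 11 tested had a lower induced mean (50.2% of all genes), 9 of them in both induced arrays (19.3% of all genes), with a median of -0.38. Their median against the control mean was -0.67 on induced replicate 1 and -0.17 on replicate 2, so the same array stood lower. The helicase subunit genes Mcm3, Mcm6 and Mcm5 differed by -0.73 ± 0.16, -0.66 ± 0.21 and -0.65 ± 0.21. Mki67 (-0.12 ± 0.18) and Ccna2 (-0.19 ± 0.16) overlapped between groups, whereas Pcna (-0.37 ± 0.15) and Cdk1 (-0.33 ± 0.13) did not. Top2a differed by -0.38 ± 0.19, without overlap, but 2 further Top2a probe sets above the filter were higher on average under induction. Among basal keratinocyte markers 5 of 6 had a lower mean (median -0.15). The part of either in the repair result was not tested.

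Other repair and checkpoint genes, listed by function, were less uniform. They include the lists for nucleotide excision repair and translesion synthesis, which are not among the pathways above. Of 91 tested, 58 had a lower induced mean (50.2% of all genes did) and 33 a higher one, and the median was -0.06. In both induced arrays 33 were lower (36.3%, against 19.3% of all genes) and 11 higher (against 20.1% of all genes). In limma 0 passed the threshold. At an unadjusted p under 0.05, 16 were lower and 0 higher, against 5.23% and 4.4% of all genes. Checkpoint genes supplied 7 of those 16. The lowest statistics there were those of Timeless, a fork protection factor (-0.54 ± 0.13), Ticrr, an origin firing factor (-0.39 ± 0.10), and Hus1 of the checkpoint clamp (-0.45 ± 0.12). For Ticrr its other kept probe set had the opposite sign. The list of 15 had a median of -0.11, and 4 of its 12 genes with a promoter sequence held an E2F word (33.3%).

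Further recombination genes (18 tested, 13 with a lower mean, median -0.06) included Xrcc3, another recombinase paralog (-0.40 ± 0.10), the helicase gene Recql (-0.40 ± 0.11) and the nuclease partner Eme1 (-0.34 ± 0.10). Translesion synthesis genes, which copy past damage, had 8 of 10 lower means and a median of -0.17, with Rad18 at -0.31 ± 0.10, Shprh at -0.31 ± 0.11 and Polh at -0.30 ± 0.12. Each of these 3 had at least 1 other kept probe set of opposite sign. Of 12 base excision genes 7 had a lower mean (median -0.05), among them the uracil glycosylase Ung (-0.60 ± 0.20), Ogg1 (-0.22 ± 0.10) and Parp2 (-0.21 ± 0.10). The mismatch repair genes Mlh3 and Pms1 differed by -0.34 ± 0.10 and -0.24 ± 0.15. The share with a lower mean, to be set beside the counts of these lists, was 50.2% over all genes tested.

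The remaining lists had medians near 0. Nucleotide excision repair genes remove bulky lesions such as those of ultraviolet light. Among 17, 8 had a lower mean (50.2% of all genes did) and 9 a higher one, with a median of 0.01. The damage recognition gene Xpc differed by -0.26 ± 0.11, Ercc1 by 0.16 ± 0.11 and Ddb2 by -0.19 ± 0.14. None of the 16 with a promoter sequence held an E2F word. Among the other lists, 0 of 8 translesion synthesis, 0 of 8 further Fanconi and 0 of 2 further mismatch repair genes held one. So did 12.5% of further end joining, 8.33% of further base excision and 7.14% of further recombination genes. The share was 50% for the replication and proliferation markers and 0% for p53 response genes. A link between the word and the differences was not tested. The 10 further end joining genes had a median of -0.03, with Rif1 at -0.19 ± 0.12, Poll at 0.12 ± 0.11 and Xrcc6, the other Ku subunit, at -0.10 ± 0.12. The 7 further Fanconi genes had a median of 0.03, with Fancf at 0.26 ± 0.15, Fance at -0.18 ± 0.12 and Ube2t, the conjugating enzyme for Fancl, at -0.20 ± 0.17.

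Genes that respond to p53, the effector that damage kinases activate, were mixed. Of 17 tested, 4 were lower (23.5%) and 5 higher in both induced arrays, against 19.3% and 20.1% of all genes. The median of the list was 0.05. Pmaip1, a pro-apoptotic gene also called Noxa, had values of 8.39 and 8.33 in controls and 8.96 and 9.16 in induced arrays (0.70 ± 0.11, adjusted p = 0.197). Plk3 differed by 0.32 ± 0.11 and Sesn1 by -0.27 ± 0.10. The classic targets Cdkn1a and Mdm2 differed by 0.10 ± 0.11 and 0.09 ± 0.10.

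**Figure D4:**
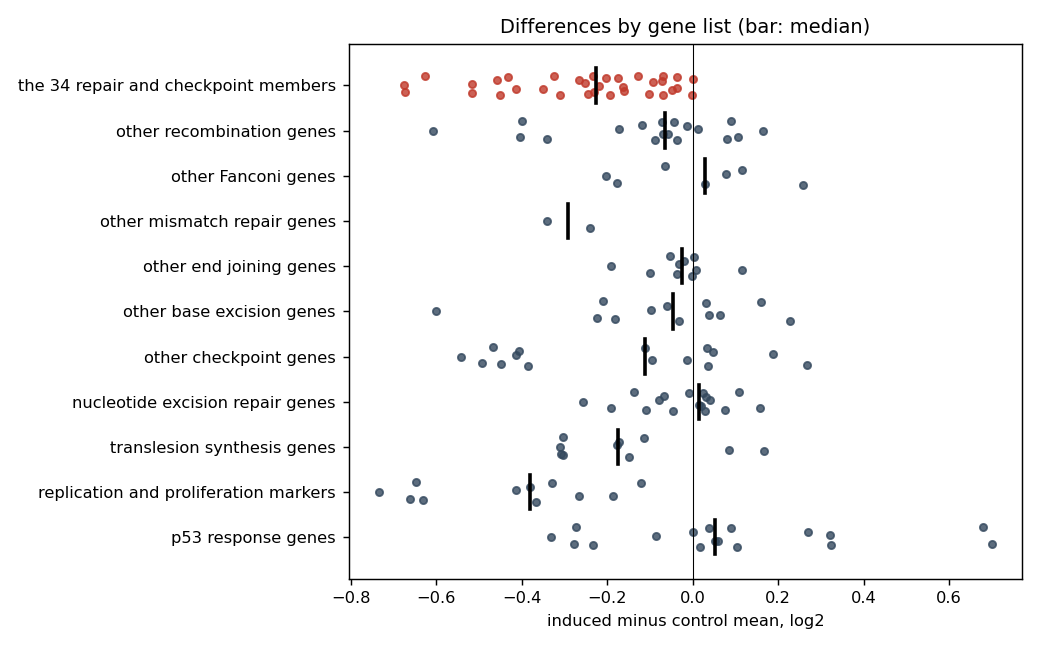
Induced minus control difference on the log2 scale (x axis) for each tested gene of each list, with the median as a black bar. The 34 repair and checkpoint genes (red) have a median of -0.23 and the replication and proliferation markers -0.38, whereas nucleotide excision repair and p53 response genes have medians of 0.01 and 0.05.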

How the data were processed

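RNA of each of the 4 samples was biotin-labelled and put on 1 Affymetrix array, per the labels' protocols. The authors deposited log2 values made with RMA, a quantile normalizing method that the submitters' processing notes name without a version, so a difference in the total RNA of a cell cannot be seen. From the 45101 probe sets, 64 controls were removed. Genes came from the platform annotation, with symbols updated through RefSeq (GRCm38.p6), and only probe sets with 1 gene were named. The 27022 that passed the filter were tested with limma 3.58.1 (R 4.3.3; a two-sided moderated test of induced against control, without covariates), and p-values were adjusted over all of them by Benjamini and Hochberg, with a threshold of 0.05. The fit had 2 residual and 3.82 prior degrees of freedom. Differences are given with the SE of the model, and those smaller than 1e-06 were counted as equal.

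The members and gene lists were chosen with earlier results of these data known. The rule for described genes took the 12 members with the largest absolute statistic, the lowest and highest of each pathway, and up to 3 genes per other list by that statistic. Further members, Cdkn1a, Mdm2 and the keratins were added for completeness after their values were seen. The closing section gives the alternatives tried for the filter, scaling, variance prior, probe set rule, block and arrays used. On 5 simulated data sets of 27022 probe sets for this comparison, limma recovered 2.39% of 1.5-fold, 62.1% of 2-fold and 98.2% of 4-fold changes.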

Additional observations from a re-analysis of the deposited data

Results flagged for a closer look

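Transcripts of the Y chromosome appeared on induced replicate 1 above their level in both controls, in probe sets that no repair list uses. Eif2s3y had a log2 value of 9.38 there, Kdm5d 7.14 and Uty 5.59, and the highest control values of these genes were 2.82, 2.65 and 3.59. Xist was lower on that array, at 5.86, than on the other 3 (10.57, 10.80 and 11.19).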

How the results depend on the processing

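The count of repair and checkpoint genes past an adjusted p of 0.05 stayed at 0 under each of the 12 alternatives and at a threshold of 0.10, and was 11 at an unadjusted p under 0.05. With the replicate number as a block it was 0, with a lowest adjusted p of 0.469, and 8 had an unadjusted p under 0.05. Same-numbered arrays deviated with a correlation of -0.10, and with the numbers crossed, which was chosen after seeing the data, 0 probe sets were called. The median over the genes was -0.20 to -0.23 under the other filters, scalings and probe set rules, and the number lower in both induced arrays was 18 to 24. Averaging the probe sets of each gene gave a Fanconi median of -0.049. Leaving out each array in turn gave medians of -0.24 to -0.18 for the 34 repair and checkpoint genes. The pathway medians were -0.51 to -0.21 for recombination, -0.41 to -0.24 for mismatch repair and -0.17 to -0.0035 for base excision. They were -0.18 to -0.12 for Fanconi, -0.44 to -0.29 for checkpoint kinases and -0.19 to 0.11 for end joining. With an array left out, 25 to 28 of the 34 genes had every induced value below every control value. Over 3 arrays the rule is easier to meet, and 31.9% to 37.9% of all genes met it. A lone array was then assumed to vary like the other group. The cause of these shifts was not tested. Of 235 values of the 20 genes named by rule under these alternatives, 9 had the opposite sign, in Palb2, Fancg, Xrcc5, Parp1 and Atr. Signals near the filter level, as for Brip1, Polq and Exo1, limit how large a difference can be seen.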
